A study of Mus musculus with 21 samples.

Results

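Heme breakdown and iron handling was followed through 10 genes, Hmox1, Blvra, Blvrb, Slc40a1, Fth1, Ftl1, Tfrc, Slc11a1, Slc11a2 and Slc48a1, which were picked by name among the 45706 genes of the deposited table, and each of the 10 was measured in all 21 libraries. The libraries were bulk RNA-seq of cells sorted from mouse brain, with 3 libraries in each of 7 groups and the tissue of 2 brains pooled at random in every library. Microglia (CD45low CD11b+) were taken from WT sham controls and, at 1 d and at 7 d post-CCI, from mice that were WT or Fgg γ390–396A. Infiltrating myeloid cells (CD45hi CD11b+), which include monocytes and neutrophils, were taken at 1 d post-CCI from both genotypes. CCI, controlled cortical impact, is an open-head model of traumatic brain injury, and sham controls had the craniotomy with no impact. All groups were adult male mice on the C57BL/6 background. Fgg γ390–396A mice carry alanine substitutions in the fibrinogen γ chain, at the site through which fibrin engages the myeloid integrin CD11b/CD18, while blood clotting is spared. Whether the sorted mice were homozygous is not given in the sources used here for these libraries. There was no sham group of that genotype, so each comparison with sham also carries the genotype for those mice, and the WT mice were not stated to be littermates. In bulk samples, a smaller share of cells that express a gene and less RNA per cell cannot be told apart.

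When blood enters the brain, phagocytes take up red cells and hemoglobin, and the heme they free is opened by heme oxygenase 1 (Hmox1), which releases iron, carbon monoxide and biliverdin. Biliverdin is reduced to bilirubin by biliverdin reductase A (Blvra), while Blvrb is a flavin and biliverdin reductase. Iron that is not used is held in ferritin, a shell of heavy (Fth1) and light (Ftl1) chains, or leaves the cell through ferroportin (Slc40a1), the known iron exporter. Iron enters with transferrin through its receptor (Tfrc), and Slc11a2 (DMT1) and Slc11a1 (NRAMP1) carry it across endosomal and phagosomal membranes, as Slc48a1 (HRG1) does for heme. Messenger RNAs of this system carry iron-responsive elements, hairpins bound by the iron regulatory proteins when iron is low. A 5′ element then holds back translation, and elements in the 3′ UTR of Tfrc protect its RNA from decay, so a change in ferritin RNA is not a measure of ferritin protein.

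The elements are shown, as background to the RNA levels, because the members that store, export and take up iron with transferrin carry them. Each was found by a search of the GENCODE M21 transcripts (GRCm38) for the loop CAGTGN, shown in capitals, closed by 5 paired bases, with the unpaired c of the stem before it. A match was found in 4 of the 10 members, and in 0.81% of all genes with a transcript sequence (448 of 55450). The members without a match, Hmox1 among them, lack only these letters in this arrangement.
Slc40a1, 5′ UTR, chr1:45925471-45925488, minus strand: tcagctaCAGTGTtagct
Fth1, 5′ UTR, chr19:9982737-9982754, plus strand: gcttcaaCAGTGCttgaa
Ftl1, 5′ UTR, chr7:45459785-45459802, minus strand: gcttcaaCAGTGTttgaa
Tfrc, 3′ UTR, chr16:32631224-32631241, plus strand: tcggaagCAGTGCcttcc
Tfrc, 3′ UTR, chr16:32631603-32631620, plus strand: tcgggagCAGTGTcttcc
Tfrc, 3′ UTR, chr16:32631668-32631685, plus strand: tcggagaCAGTGAtctcc
Tfrc, 3′ UTR, chr16:32631715-32631732, plus strand: tcgggaaCAGTGTttccc
The ferritin elements differ from each other in the last base of the loop. The 4 matches in Tfrc lie within the same 3′ UTR, with stems of differing sequence. Elements with an imperfect stem would be missed by this search, in Tfrc and in the other members.

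Total counts per library ranged from 18896957 to 51875767, of which ribosomal RNA genes, those of mitochondria included, together took 43% to 58.5%. That share was 43.4% to 47.8% in sham, 50.6% to 58.5% in WT microglia at 1 d, without overlap, and 47.1% to 52.4% in those of Fgg γ390–396A mice at 1 d. At 7 d it was 51% to 55.7% in WT and 48.6% to 52.7% in Fgg γ390–396A microglia, above every sham library. Its part in the changes over sham was not tested. Levels are given as CPM (the count scaled to a library of fixed size) after TMM scaling, with transcript length already divided out in the deposited values, so levels of different genes can be set side by side. A level of 3 counts corresponded to 0.0448 to 0.158 CPM, for counting error only, and every member was above it in every library. The labelled cell types carried their markers: the summed level of 10 microglia genes was 3830 CPM or more in each microglia library and at most 1040 CPM in infiltrating cells, and that of 10 monocyte genes was 8160 CPM or more in infiltrating cells and at most 993 CPM in microglia. Sums of 10 genes each were at most 12.3 CPM for neurons, 56.1 CPM for astrocytes, 79.2 CPM for oligodendrocytes and 26.9 CPM for endothelial or mural cells in any library. The sums of 6 red blood cell genes with enough counts, of 10 listed, were between 0 and 35.6 CPM, with low and high libraries in most groups. TMM factors ranged from 0.735 to 1.546 and were highest in sham controls. Scaling by total counts alone lowered the median log2 fold change of all genes over sham to between -0.67 and -0.25, and this shift applies to each fold change over sham given below.

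**Figure D1:**
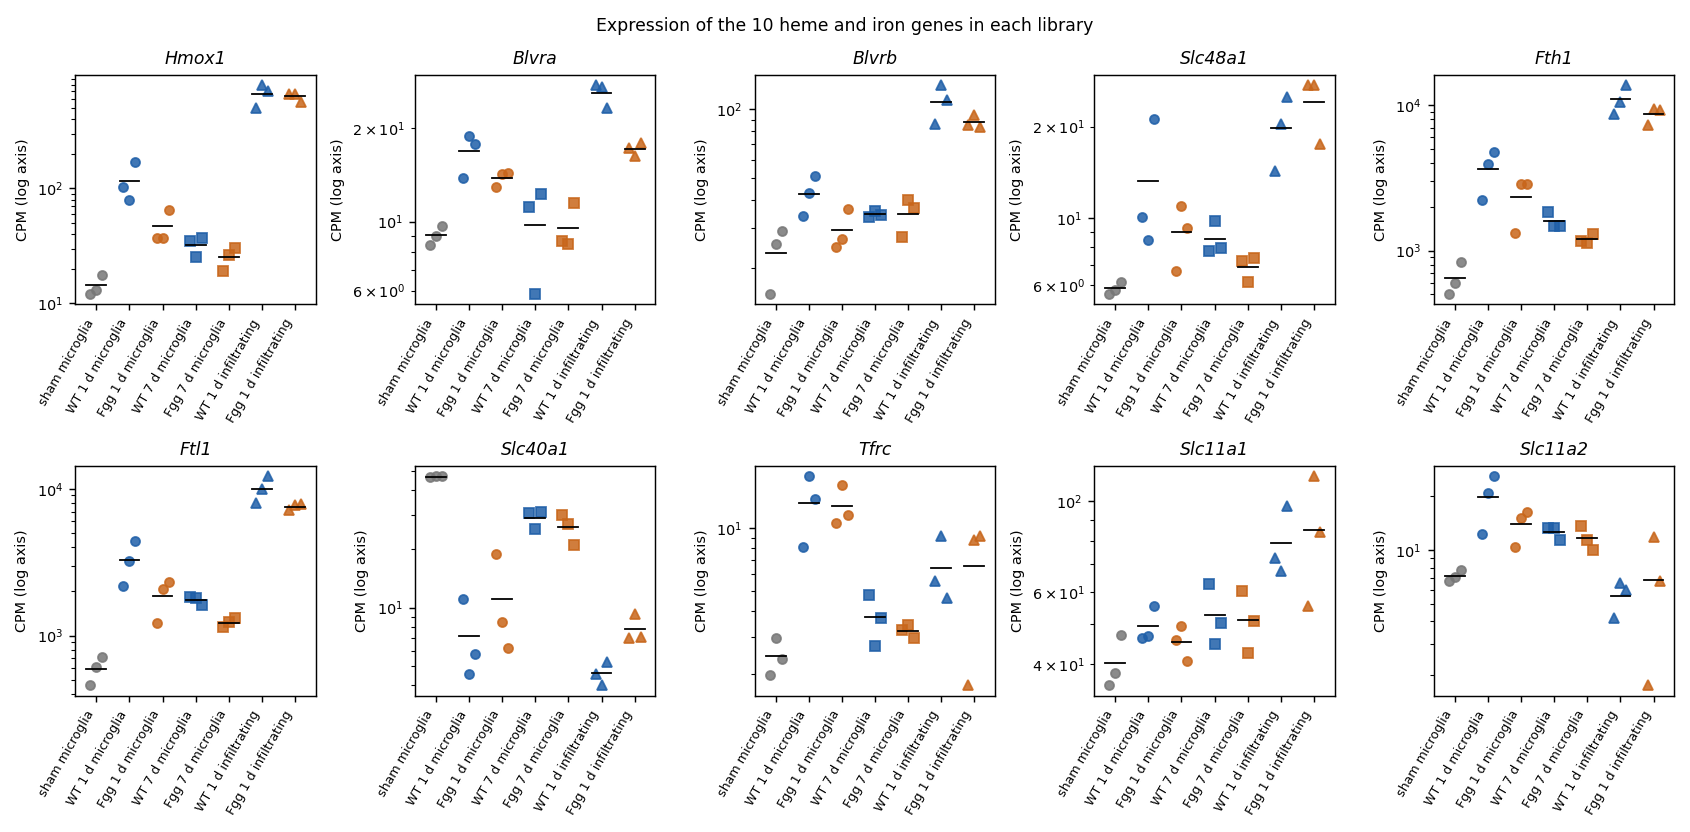
Expression of the 10 genes in each of the 21 libraries (CPM on a log axis with its own range for each gene; circles 1 d or sham, squares 7 d, triangles infiltrating cells; blue WT, orange Fgg γ390–396A, grey sham; the line is the mean of 3 libraries). Hmox1, Fth1 and Ftl1 were highest in infiltrating cells, and Slc40a1 was highest in sham microglia.

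In microglia from WT mice at 1 d post-CCI, heme oxygenase 1, both ferritin chains, the transferrin receptor and the transporters Slc11a2 and Slc48a1 rose over sham controls, and ferroportin fell. A gene was called when its absolute log2 fold change exceeded 1 with an adjusted p under 0.05 in edgeR's quasi-likelihood test, adjusted over 23815 genes. Values after ± are standard errors of log2 fold changes. By this rule 6 of the 10 members were higher and 1 was lower, where 8.05% of all genes were called higher and 4.21% lower. The median log2 fold change was 1.32 over the 10 members and 0 over all genes tested. Blvra and Blvrb did not pass, with log2 fold changes under the fold threshold (0.90 with adjusted p = 0.0069, and 0.86 with adjusted p = 0.011). At 1 d in Fgg γ390–396A mice, 4 members were higher (Hmox1, Fth1, Ftl1 and Tfrc) and Slc40a1 was lower, against 5.49% and 1.15% of all genes, with a median of 0.78 over the members. Both of these comparisons use the same 3 sham libraries. By total counts, 17.3% of all genes called in WT mice at 1 d were higher, in place of 65.7%, and the corresponding shares in Fgg γ390–396A mice were 44% and 82.7%.

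At 7 d post-CCI, 3 members were still above sham in WT mice (Hmox1, Fth1 and Ftl1), where 1.93% of all genes were called higher and 0.0924% lower, and no member was called lower. For Fgg γ390–396A mice at 7 d, 0 of the 10 were called by edgeR, where 0.63% of all genes were higher and 0.0336% lower. Of those members, 5 had an unadjusted p under 0.05, where 7.59% of all genes did, and DESeq2's Wald test called 1, Ftl1. Monocyte markers, 2 of 10 called higher in WT mice at 7 d with a median of 1.16, summed to 748 to 993 CPM in WT and 455 to 646 CPM in Fgg γ390–396A microglia at 7 d, both above the 97.3 to 425 CPM of sham. Their part in the levels of Hmox1 and ferritin at 7 d was not tested. By total counts, the share of called genes that were higher at 7 d went from 95.4% to 24.7% in WT mice and from 94.9% to 80% in Fgg γ390–396A mice. Between 1 d and 7 d, WT microglia had 1 member higher at 7 d (Slc40a1) and 3 lower (Hmox1, Fth1 and Tfrc), against 2.68% and 4.38% of all genes. Slc40a1 was higher and Tfrc lower at 7 d than at 1 d in Fgg γ390–396A mice, against 0.663% and 2.88% of all genes. In WT mice, total counts moved the share of called genes that were higher at 7 d than at 1 d from 37.9% to 48.8%.

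**Figure D2:**
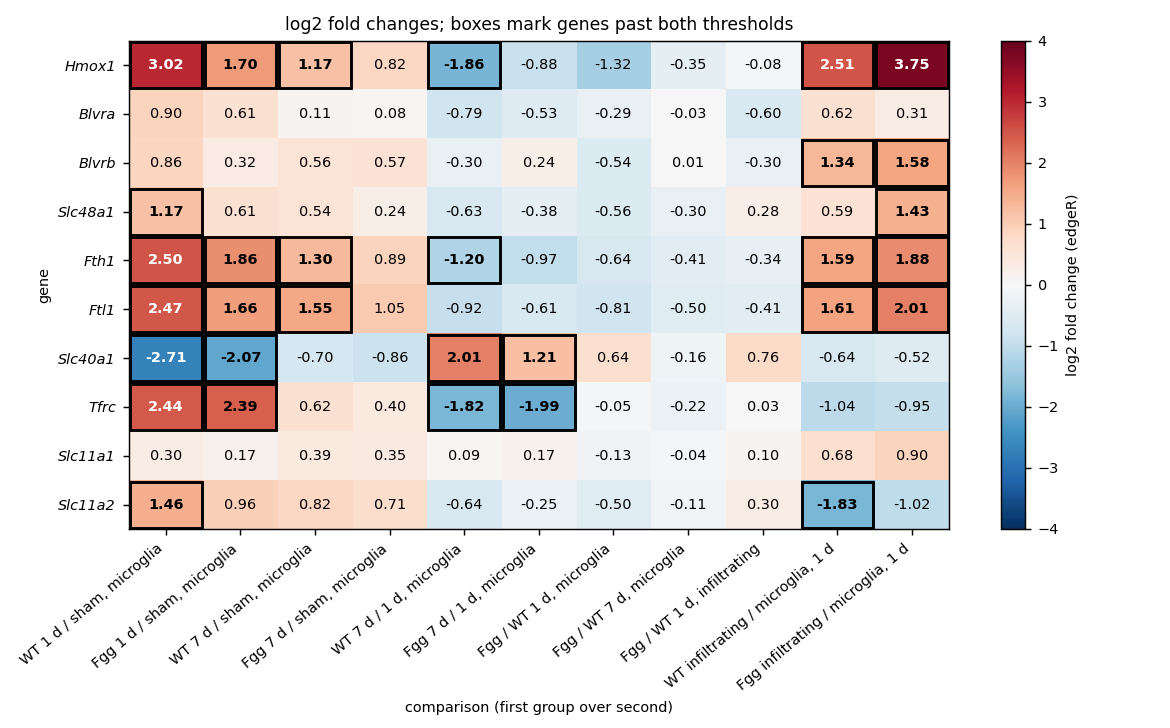
log2 fold changes of the 10 genes (rows) in 11 comparisons (columns, first group over second, edgeR), colored from blue (lower) to red (higher), with boxes around genes past both the fold and the adjusted p threshold. The WT 1 d column holds 7 boxes, and the 3 genotype columns hold 0.

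Heme oxygenase 1 was the member with the largest fold change over sham in WT mice at 1 d. Hmox1 (ENSMUSG00000005413, chromosome 8, 75093621 to 75100589 on GRCm38, protein coding) had 12.1, 13.2 and 17.8 CPM in the 3 sham libraries. Its level was 103, 78.7 and 169 CPM in WT microglia at 1 d and 37.3, 37.4 and 65.6 CPM in those of Fgg γ390–396A mice. Every 1 d library lay above every sham library, and every WT library above every Fgg γ390–396A library. At 7 d the levels were 34.8, 25.2 and 36.7 CPM in WT mice and 19.3, 26.2 and 30.6 CPM in Fgg γ390–396A mice, all above sham, with the genotypes overlapping. Over sham the log2 fold change was 3.02 ± 0.30 (adjusted p = 1.3e-06) in WT mice at 1 d and 1.70 ± 0.29 (adjusted p = 0.00051) in Fgg γ390–396A mice at 1 d. It was 1.17 ± 0.29 (adjusted p = 0.029) in WT mice at 7 d, a call that was lost without sham library 1 or 2 or WT 7 d library 1 or 3 (log2 fold change 1.06, 1.11, 1.07 and 1.06, adjusted p from 0.11 to 0.15) and with total counts (0.62, adjusted p = 0.15). The value at 7 d in Fgg γ390–396A mice was 0.82 ± 0.28 (adjusted p = 0.33). From 1 d to 7 d Hmox1 fell by 1.86 on the log2 scale in WT mice (adjusted p = 0.00027), and the value for Fgg γ390–396A mice was -0.88 ± 0.28 (adjusted p = 0.079). The study itself names Hmox1 among inflammatory genes decreased in injured Fgg γ390–396A microglia, so its place here is not independent evidence. The summed monocyte markers, of which 3 of 10 were called higher in WT microglia at 1 d over sham, were 97.3 to 425 CPM in sham and 262 to 665 CPM in WT mice at 1 d, and none of the 10 was at 0 in every library of a group. Their part in the change of Hmox1 was not tested.

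The biliverdin reductases and the heme transporter had smaller fold changes than Hmox1. Blvra had 8.38 to 9.70 CPM in sham and 13.9 to 18.9 CPM in WT mice at 1 d, and these groups did not overlap. Blvrb ranged from 15.5 to 29.3 CPM in sham and from 33.9 to 51.0 CPM in WT mice at 1 d, also without overlap. Blvra passed the fold threshold without WT 1 d library 1 (log2 fold change 1.02), and Blvrb without that library (1.00) or without sham library 3 (1.06). With total counts the log2 fold changes of Blvra and Blvrb were 0.13 (adjusted p = 0.76) and 0.1 (adjusted p = 0.75). Slc48a1 had 5.61, 5.77 and 6.16 CPM in sham and 10.0, 8.43 and 21.1 CPM in WT mice at 1 d. WT library 3 stood well above the other two, and the log2 fold change of Slc48a1 of 1.17 ± 0.30 (adjusted p = 0.0093) became 0.69 (adjusted p = 0.1) without it and 0.39 with total counts. Slc48a1 in Fgg γ390–396A mice at 1 d had 6.70 to 10.9 CPM, above sham in each library, with a log2 fold change of 0.61 ± 0.30 (adjusted p = 0.25). At 7 d no call was made for Blvra, Blvrb or Slc48a1, and in WT mice their log2 fold changes over sham lay between 0.11 and 0.56.

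Ferritin RNA was abundant in every library and rose after injury in both chains. Fth1 (chromosome 19, 9980598 to 9985098) had 504, 599.8 and 837 CPM in sham, 2243, 3952 and 4779 CPM in WT mice at 1 d and 1317, 2855 and 2858 CPM in Fgg γ390–396A mice at 1 d. Ftl1 (chromosome 7, 45457944 to 45459884) had 459.6, 610.3 and 711 CPM in sham, 2187, 3236 and 4438 CPM in WT mice at 1 d and 1225, 2076 and 2325 CPM in Fgg γ390–396A mice at 1 d. For both chains all 1 d libraries lay above all sham libraries, and the genotypes overlapped at 1 d. Over sham in WT mice at 1 d the log2 fold change was 2.50 ± 0.31 (adjusted p = 1.2e-05) for Fth1 and 2.47 ± 0.27 (adjusted p = 3.2e-06) for Ftl1. Fgg γ390–396A mice had 1.86 ± 0.30 (adjusted p = 0.00037) for Fth1 and 1.66 ± 0.26 (adjusted p = 0.00026) for Ftl1. The chains kept a ratio near 1 within each library, since Fth1 over Ftl1 was between 0.818 and 1.38 in all 21 libraries.
At 7 d, Fth1 had 1831, 1466 and 1481 CPM in WT mice and 1158, 1130 and 1300 CPM in Fgg γ390–396A mice. Ftl1 had 1819, 1793 and 1609 CPM and 1137, 1229 and 1319 CPM in the same order. Both chains were above sham in each of these libraries, and each WT library was above each Fgg γ390–396A library, a genotype difference that was not called. Over sham in WT mice at 7 d the log2 fold change was 1.55 ± 0.26 (adjusted p = 0.0019) for Ftl1 and 1.30 ± 0.30 (adjusted p = 0.019) for Fth1. The Fth1 call was lost without sham library 1 or 2 or WT 7 d library 1 (log2 fold change 1.15, 1.25 and 1.16, adjusted p from 0.091 to 0.12) and with total counts (0.76). Ftl1 in Fgg γ390–396A mice had 1.05 ± 0.26 (adjusted p = 0.063) over sham at 7 d. That value passed with DESeq2 (adjusted p = 0.002), with edgeR's filterByExpr (adjusted p = 0.046) and with the replicate number as a block (1.07, adjusted p = 0.012). With total counts it was 0.73 (adjusted p = 0.09). From 1 d to 7 d in WT mice, Fth1 had a log2 fold change of -1.20 ± 0.30 (adjusted p = 0.012), a call lost without WT 1 d library 3 or WT 7 d library 2 or 3 (-1.01, -1.14 and -1.15) and with total counts (-0.94). Ftl1 had -0.92 ± 0.26 (adjusted p = 0.025) and passed the fold threshold without WT 1 d library 1 (-1.14) or WT 7 d library 1 (-1.01).
Reads of ferritin can be divided among near copies in the genome. Ftl1 made up 94.1% to 97.6% of the summed level of Ftl1 and 3 further rows of its family, with Ftl1-ps1 the largest of them. Fth1 made up 99.3% to 100% of its family's sum, and the 9 Fthl17 rows had 0 counts. In WT mice at 1 d the log2 ratio of mean sums to sham was 2.47 for the light and 2.50 for the heavy family, each with p = 0.1 in a two-sided exact permutation test, the smallest that 3 libraries against 3 allow.

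Ferroportin fell where ferritin and Hmox1 rose. Slc40a1 (ENSMUSG00000025993, chromosome 1, 45908068 to 45926523) had 46.6, 47.2 and 47.2 CPM in sham, with little spread between them. Its level was 11.1, 4.59 and 5.81 CPM in WT mice at 1 d and 18.8, 8.41 and 6.19 CPM in Fgg γ390–396A mice at 1 d. All 6 injured libraries were below sham, and the genotypes overlapped. At 7 d it had 30.5, 25.4 and 30.9 CPM in WT mice and 29.8, 26.8 and 20.9 CPM in Fgg γ390–396A mice, between the 1 d and the sham values. Over sham at 1 d the log2 fold change was -2.71 ± 0.35 (adjusted p = 1.6e-05) in WT mice and -2.07 ± 0.34 (adjusted p = 0.00035) in Fgg γ390–396A mice. At 7 d it was -0.70 ± 0.33 (adjusted p = 0.41) and -0.86 ± 0.33 (adjusted p = 0.43). From 1 d to 7 d Slc40a1 rose in WT mice (2.01 ± 0.34, adjusted p = 0.00055) and in Fgg γ390–396A mice (1.21 ± 0.33, adjusted p = 0.035). The summed microglia markers, 6 of 10 of which were called lower in WT mice at 1 d and 5 in Fgg γ390–396A mice, moved the same way, from 10800 to 12100 CPM in sham to 3830 to 5170 CPM and 5060 to 6490 CPM, and to 6690 to 7610 CPM and 7320 to 8510 CPM at 7 d. Their part in the change of Slc40a1 was not tested. The call for 7 d over 1 d in Fgg γ390–396A mice was lost without 1 d library 2 or 3 or 7 d library 1 or 2 (log2 fold change 1.04, 0.92, 1.09 and 1.18), with total counts (1.21, adjusted p = 0.17) and when only the compared groups were fitted (1.17, adjusted p = 0.11).

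The ratio of ferritin light chain to ferroportin within a library does not depend on how libraries are scaled. Ftl1 CPM over Slc40a1 CPM was 9.86, 12.9 and 15.1 in sham controls. It was 197, 704 and 763 in WT microglia at 1 d and 65.1, 247 and 376 in those of Fgg γ390–396A mice. All 6 ratios were above every sham ratio, and the ranges of the genotypes overlapped. In each of the 3 same-numbered pairs the Fgg γ390–396A ratio was the lower one. The labels do not tie these numbers to a shared day or litter, and the pairing was found in these same data, so no conclusion is drawn from that order. Within each genotype at 1 d, the libraries with more ribosomal RNA had the higher ratios, and the part of ribosomal RNA in the ratio was not tested. At 7 d the ratio was 59.6, 70.7 and 52.1 in WT mice and 38.1, 45.8 and 63.2 in Fgg γ390–396A mice, again above every sham ratio. In infiltrating myeloid cells it was 1757, 2484 and 2305 in WT mice and 1023, 833 and 1099 in Fgg γ390–396A mice, with every WT ratio above every Fgg γ390–396A ratio.

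**Figure D3:**
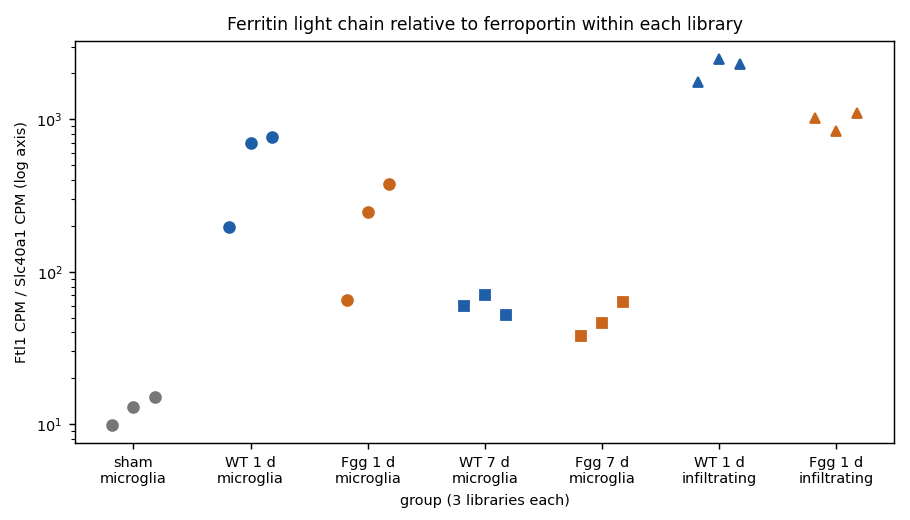
Ftl1 CPM divided by Slc40a1 CPM in each library (log axis), by group, with 3 libraries per group (grey sham, blue WT, orange Fgg γ390–396A). Sham ratios were 9.86 to 15.1, and all injured libraries lay above them.

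Of the iron uptake genes, Tfrc rose at 1 d in both genotypes and Slc11a2 in WT mice. Tfrc (chromosome 16, 32608920 to 32632794) had 1.98, 2.96 and 2.36 CPM in sham, 8.09, 17.7 and 13.8 CPM in WT mice at 1 d and 10.5, 16.1 and 11.6 CPM in Fgg γ390–396A mice at 1 d. Every 1 d library was above sham, with the genotypes overlapping. Over sham the log2 fold change was 2.44 ± 0.46 (adjusted p = 0.00076) in WT mice and 2.39 ± 0.46 (adjusted p = 0.0015) in Fgg γ390–396A mice. At 7 d Tfrc had 2.72 to 4.78 CPM in WT mice and 2.98 to 3.41 CPM in Fgg γ390–396A mice, and its log2 fold changes over sham were 0.62 ± 0.45 (adjusted p = 0.63) and 0.40 ± 0.45 (adjusted p = 0.95). From 1 d to 7 d Tfrc fell by 1.82 on the log2 scale in WT mice (adjusted p = 0.011) and by 1.99 in Fgg γ390–396A mice (adjusted p = 0.011). The first call was lost without WT 1 d library 2 or WT 7 d library 2 (-1.61 and -1.64), and the second without Fgg γ390–396A 1 d library 2 or 7 d library 1 or 3 (-1.79, -2.00 and -1.94, adjusted p from 0.051 to 0.063).
Slc11a2 had 6.69, 7.10 and 7.72 CPM in sham and 12.3, 21.0 and 25.9 CPM in WT mice at 1 d, without overlap. Its log2 fold change of 1.46 ± 0.42 (adjusted p = 0.019) lost its call without sham library 1 or 2 or WT 1 d library 2 or 3 (1.41, 1.45, 1.45 and 1.24, adjusted p from 0.05 to 0.091) and with total counts (0.65). Fgg γ390–396A mice at 1 d had 10.4 to 16.3 CPM, all above sham, with 0.96 ± 0.41 (adjusted p = 0.19). Slc11a1, whose RNA level does not tell whether its product works in these mice, was not called over sham in any group. It had 35.5 to 47.1 CPM in sham and 46.3 to 55.3 CPM in WT mice at 1 d, and its log2 fold change of 0.30 turned to -0.44 with total counts.

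Between genotypes, Hmox1 was the member with the largest difference in microglia at 1 d, and no member passed the threshold there, an absolute log2 fold change above 1 with an adjusted p under 0.1. Relative to WT, 0.0336% of all genes were called higher and 0.021% lower. By edgeR 0 members were called, 4 had an unadjusted p under 0.05, where 5.07% of all genes did, and DESeq2 called 1. The levels given above, 78.7 to 169 CPM in WT mice and 37.3 to 65.6 CPM in Fgg γ390–396A mice, correspond to a log2 fold change of -1.32 ± 0.28 (adjusted p = 0.21), with a 95% interval of -1.92 to -0.73. Libraries of the same replicate number deviated together in this comparison, with r across genes from 0.104 to 0.372, and with that number as a block the adjusted p was 0.057 at a log2 fold change of -1.32, which passed. The block was fitted as an effect shared by all 7 groups, not as a pairing of these libraries alone. The pairing itself was found in these same data. DESeq2, the program the study used for its own comparisons, gave -1.35 with an adjusted p of 0.0021 in its Wald test. Leaving out 1 library at a time gave log2 fold changes from -1.65 to -0.97, with adjusted p from 0.081 to 1 and a call without Fgg γ390–396A library 3 (-1.65), WT library 1 (-1.40) or WT library 2 (-1.55). With total counts the value was -1.02 (adjusted p = 0.53), where the median of all genes was 0.29 and 81.8% of called genes were higher, in place of 61.5%.
Ftl1 had -0.81 ± 0.26 (adjusted p = 0.81), Fth1 -0.64 ± 0.30 (adjusted p = 0.89) and Blvrb -0.54 ± 0.23 (adjusted p = 0.89). For these 3 genes the ranges of the genotypes overlapped, but within each of the 3 same-numbered pairs the Fgg γ390–396A library was lower. Blvra and Slc11a2 had the same order in each pair, and the share of all genes with it was not counted. With the block the log2 fold changes of Ftl1, Fth1 and Blvrb were -0.81, -0.64 and -0.53 (adjusted p = 0.4, 0.85 and 0.75), so none passed. Slc40a1 had a log2 fold change of 0.64 with an interval of -0.05 to 1.33, and Tfrc of -0.05 with -0.96 to 0.85. The median over the members was -0.52. The summed level of 20 genes that respond to cell dissociation was 1070 to 1270 CPM in WT mice and 358 to 1020 CPM in Fgg γ390–396A mice, without overlap, with a median log2 fold change of -0.60 over the 20 genes. That sum was 1740, 350 and 464 CPM in the 3 sham libraries. Neutrophil markers summed to 174 to 840 CPM in WT mice and 105 to 434 CPM in Fgg γ390–396A mice, and monocyte markers to 262 to 665 CPM and 174 to 501 CPM. The part of the dissociation genes and of these markers in the difference was not tested.

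At 7 d no member passed the same rule between genotypes in microglia, where 0.0252% of all genes were called higher and 0.0126% lower. By edgeR 0 members had an unadjusted p under 0.05, where 3.34% of all genes did, and DESeq2 called 0. Fth1, Ftl1 and Slc48a1 were lower in every Fgg γ390–396A library than in every WT library, with log2 fold changes of -0.41, -0.50 and -0.30. The share of all genes that separated in this way was not counted. For 3 libraries against 3, a two-sided exact permutation test cannot give a p under 0.1. The summed monocyte markers separated the same groups in the same direction, with 993, 873 and 748 CPM in WT mice and 455, 646 and 603 CPM in Fgg γ390–396A mice. The summed red blood cell markers separated them in the opposite direction, with 0.58 to 2.07 CPM in WT and 5.92 to 9.88 CPM in Fgg γ390–396A mice. Of these 6 red blood cell genes 0 were called. The part of both marker sets in these differences was not tested. Hmox1 had -0.35, with an interval of -0.94 to 0.24. The difference between the genotype effects at 7 d and at 1 d was tested directly, at an adjusted p under 0.1. No gene of the whole table passed (0%), and Hmox1, with a difference of 0.98 (interval 0.15 to 1.81), was the 1 member with an unadjusted p under 0.05. The share of all genes with such a p was 2.74%. DESeq2 called 0 members.

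**Figure D4:**
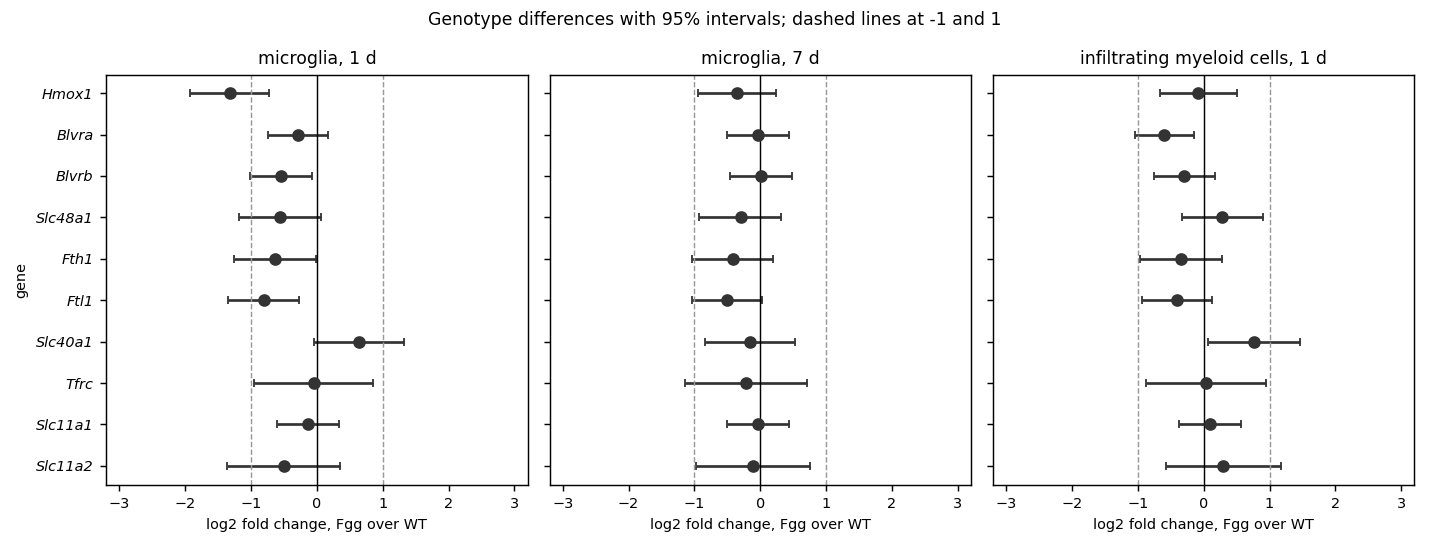
log2 fold changes of Fgg γ390–396A over WT mice (points) with 95% intervals (bars) for the 10 genes in microglia at 1 d, microglia at 7 d and infiltrating myeloid cells at 1 d. Dashed lines mark -1 and 1, and Hmox1 at 1 d in microglia is the 1 point beyond them.

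In infiltrating myeloid cells at 1 d, Hmox1 did not differ between genotypes beyond the spread of the libraries. It had 502, 793 and 707 CPM in WT mice and 667, 656 and 566 CPM in Fgg γ390–396A mice. The groups overlapped, with a log2 fold change of -0.08 and an interval of -0.66 to 0.50. No member was called, where 0.252% of all genes were higher and 0.202% lower, and DESeq2 called 0. An unadjusted p under 0.05 was found for 11.5% of all genes and for 2 members. These were Blvra, with 27.5, 27.1 and 23.1 CPM in WT mice and 17.3, 16.3 and 17.8 CPM in Fgg γ390–396A mice (-0.60 ± 0.22, adjusted p = 0.31), and Slc40a1, with 4.55, 4.00 and 5.28 CPM and 6.96, 9.33 and 7.11 CPM (0.76 ± 0.34, adjusted p = 0.4). The groups did not overlap in either gene, Blvra being higher and Slc40a1 lower in WT mice. Ftl1 was also higher in every WT library (-0.41, adjusted p = 0.53). The share of all genes that separated in this way was not counted. Monocyte markers summed to 9390 to 10800 CPM in WT and 8160 to 8670 CPM in Fgg γ390–396A infiltrating cells, without overlap. Neutrophil markers summed to 3550 to 13200 CPM and 2770 to 5840 CPM in the same order, with overlap and means of 8400 and 4600 CPM. The sums of border-associated macrophage markers overlapped, at 1430 to 2310 CPM and 1500 to 2370 CPM, with a median log2 fold change of 0.72 over the 10 genes. None of these 10 was called in either direction. The part of these cell types in the differences was not tested. The genotype effect in infiltrating cells minus that in microglia was 1.24 for Hmox1 (interval 0.41 to 2.07, adjusted p = 0.49). No member passed this test in edgeR or DESeq2, and 0.0462% of all genes passed in edgeR. An unadjusted p under 0.05 was found for 8.37% of all genes and for 1 member.

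Infiltrating myeloid cells held more heme oxygenase and ferritin RNA than microglia of the same injury. In WT mice, 4 members were higher in infiltrating cells (Hmox1, Blvrb, Fth1 and Ftl1) and Slc11a2 was lower, against 5.61% and 6.3% of all genes. For Fgg γ390–396A mice, 5 were higher (the same 4 and Slc48a1) and none was called lower, against 6.96% and 9.7% of all genes. Total counts moved the share of called genes that were higher in infiltrating cells of Fgg γ390–396A mice from 41.8% to 23.7%. Every infiltrating library of both genotypes had more Hmox1 than every microglia library. The log2 fold change of Hmox1 over microglia was 2.51 ± 0.29 (adjusted p = 6.3e-06) in WT mice and 3.75 ± 0.31 (adjusted p = 1.3e-07) in Fgg γ390–396A mice. Fth1 reached 8680, 10490 and 13750 CPM in WT and 7327, 9353 and 9284 CPM in Fgg γ390–396A infiltrating cells. Ftl1 reached 7989, 9939 and 12160 CPM and 7114, 7766 and 7816 CPM, so the ferritin chains were the members with the highest levels per length in both cell types. Their log2 fold changes over microglia were 1.59 ± 0.30 (adjusted p = 0.00096) for Fth1 and 1.61 ± 0.26 (adjusted p = 0.00021) for Ftl1 in WT mice. Blvrb had 86.5, 128 and 109 CPM in WT infiltrating cells, all above microglia, with 1.34 ± 0.23 (adjusted p = 0.00033).
Slc11a2 had 4.16, 6.53 and 6.00 CPM in WT infiltrating cells, below each WT microglia library at 1 d, with a log2 fold change of -1.83 ± 0.43 (adjusted p = 0.0051). The Fgg γ390–396A infiltrating cells had 1.76, 11.9 and 6.75 CPM, a wide spread that overlapped microglia, and -1.02 ± 0.41 (adjusted p = 0.089). That value passed with the replicate number as a block (-1.13, adjusted p = 0.048), with total counts (-1.41) and without infiltrating library 2 (-1.69). Slc40a1 was low in infiltrating cells of both genotypes and was not called against microglia at 1 d. Tfrc had 5.56, 9.21 and 4.60 CPM in WT and 1.76, 8.76 and 9.16 CPM in Fgg γ390–396A infiltrating cells, and the first Fgg γ390–396A library was the lowest. The log2 fold changes of Tfrc over microglia were -1.04 ± 0.44 (adjusted p = 0.13) in WT and -0.95 ± 0.44 (adjusted p = 0.14) in Fgg γ390–396A mice, and with total counts the latter was called lower (-1.34, adjusted p = 0.025). Slc48a1 was 14.2 to 25.0 CPM in WT and 17.5 to 27.4 CPM in Fgg γ390–396A infiltrating cells, and passed in the latter (1.43 ± 0.30, adjusted p = 0.0018). Without WT 1 d microglia library 3 it also passed in WT mice (1.15, adjusted p = 0.0073). Slc11a1 had 67.5 to 97.4 CPM in WT and 55.3 to 115 CPM in Fgg γ390–396A infiltrating cells. Its log2 fold change of 0.90 in Fgg γ390–396A mice was just under the fold threshold and passed with DESeq2 (1.02) and without infiltrating library 1 (1.24). With total counts it was 0.48 (adjusted p = 0.19). The dissociation genes, 13 of 20 of which were called higher in WT infiltrating cells, summed to 3190 to 5510 CPM there against 1070 to 1270 CPM in WT microglia. Neutrophil markers, 5 of 10 of them called higher, summed to 3550 to 13200 CPM, and border-associated macrophage markers to 1430 to 2310 CPM. Their part in the levels was not tested.

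Around the members, 5 lists of the same pathway were counted, with 56 of 60 listed genes tested. Over sham in WT mice at 1 d, 8 of the 56 were higher and 1 lower, where 8.05% and 4.21% of all genes were. Of 14 regulators and other targets of the Hmox1 stress response, 5 were higher, with a list median of 0.50 against 0 for all genes. The genes with the smallest adjusted p were Slc39a14 (3.92 ± 0.23, adjusted p = 1.1e-08), a zinc transporter that also carries iron, Tspo (2.77 ± 0.20, adjusted p = 8.3e-08), a mitochondrial membrane protein that binds porphyrins, and Txnrd1 (2.26 ± 0.26, adjusted p = 5.5e-06), a thioredoxin reductase under NRF2 control. Trf, the iron carrier transferrin, was lower (-1.35 ± 0.23, adjusted p = 0.00029). At 1 d in Fgg γ390–396A mice, 5 of the 56 were higher and 0 lower, against 5.49% and 1.15% of all genes, 2 of them stress response genes, and the same 3 led: Slc39a14 (3.86), Tspo (2.65) and Txnrd1 (1.66). At 7 d the 1 gene of 56 called over sham was Tspo, in WT (1.85) and in Fgg γ390–396A mice (1.31), where 1.93% and 0.63% of all genes were called higher, so the count in WT mice was near that of all genes.
From 1 d to 7 d, 1 gene of 56 was higher and 5 were lower in WT mice, against 2.68% and 4.38% of all genes, and 0 and 6 in Fgg γ390–396A mice, against 0.663% and 2.88%. Trf rose in WT mice (1.53), while Slc39a14 (-3.04), Txnrd1 (-2.26) and the cystine transporter Slc7a11 (-4.65) fell. Genes that fell in Fgg γ390–396A mice included Slc39a14 (-3.46), Tspo (-1.35) and Txnrd1 (-1.46). Heme synthesis had 1 of 9 genes higher at 1 d in each genotype, scavenging and export of heme 1 of 10, iron uptake and release 1 of 14 higher in each and 1 lower in WT mice, and iron sensing and ferritin turnover 0 of 9 in either direction. Between genotypes 0 of the 56 passed in edgeR in microglia at 1 d, microglia at 7 d or infiltrating cells, where 6, 4 and 10 had an unadjusted p under 0.05. Over all genes, 5.07%, 3.34% and 11.5% had such a p. DESeq2 called 1 (Slc7a11), 0 and 3 (Alas2, Slc46a1 and Uros) of the 56, names given after their values were seen. In the tests of a difference between effects, edgeR called 0 of the 56 for either, with 4 and 9 at an unadjusted p under 0.05, and DESeq2 called 1 (Slc7a11) over time and 2 (Keap1 and Uros) over cell types. Over all genes, 2.74% and 8.37% had an unadjusted p under 0.05 in these tests by edgeR.
In infiltrating cells over microglia, 11 of 56 were higher and 7 lower in WT mice, against 5.61% and 6.3% of all genes, and 13 and 9 in Fgg γ390–396A mice, against 6.96% and 9.7%. Of the 14 stress response genes 7 and 9 were higher, with list medians of 1.41 and 1.96 against 0 and -0.13 for all genes. In WT mice Hif1a, a hypoxia factor (1.90), Tspo (1.54) and Slc7a11 (3.16) led the higher genes, and in Fgg γ390–396A mice Hif1a (2.09), Slc7a11 (4.88) and Gclm, of glutathione synthesis (2.81). The exporter Abcg2 (-3.22 and -3.13) and the metal transporters Slc39a8 (-2.15 and -2.34) and Slc39a14 (-1.35 and -1.25) led the lower ones in both genotypes. Heme synthesis had 1 of 9 lower in WT and 3 of 9 in Fgg γ390–396A mice. Iron sensing had 1 gene higher in WT and 1 lower in Fgg γ390–396A mice.

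Across the 21 libraries, Hmox1 followed both ferritin chains (Pearson r of log2 CPM = 0.97 with each), Blvrb (0.94) and Slc48a1 (0.93), and ran against Slc40a1 (-0.84). The coefficient was 0.34 with Tfrc and -0.40 with Slc11a2. Of 5359 other genes with a mean of at least 10 CPM, those most like Hmox1 were Anxa2 (0.986), Vim (0.983), Prdx1 (0.982), Esd (0.982) and Cstb (0.981). These coefficients describe 7 groups and 2 cell types that share libraries and scaling, and no p is given.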

How the data were processed

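Paired-end reads of the 21 libraries were aligned to GRCm38 and quantified by salmon within nf-core/rnaseq, and the authors deposited expected counts of each gene, with transcript length divided out within a library and no scaling between libraries. The values were rounded here to whole counts, since 100% (to 1 decimal) of values above 0 were not whole. Of 45706 identifiers, 45143 matched GENCODE M21, and 563 did not. The annotation release of the authors is not given in the sources used here.

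Counts were tested with edgeR 4.0.16 in R 4.3.3 by its quasi-likelihood test after TMM scaling, with p-values adjusted by Benjamini-Hochberg. A single fit held all libraries and a mean for each group, over the 23815 genes with at least 5 counts in all. Standard errors were taken from the fold change and its F statistic. The code was tested on simulated data. The members and lists were chosen with earlier results of these data known. Groups came from the sample titles, and p-values measure the spread between these pooled libraries.

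Replicate numbers, which the labels do not tie to a shared day or litter, paired the libraries of 1 of 11 comparisons, Fgg γ390–396A over WT microglia at 1 d, by the rule that each pair's r of deviations be over 0.1 (0.372, 0.151 and 0.104). Alternatives were DESeq2 1.42.0 (Wald test and size factors), total counts, other filters, thresholds and samples, the replicate block and leaving out each library. The block was an effect of the number shared by all groups, also where the numbers did not pair the libraries. Named genes were all members and, among listed pathway genes called, up to 3 per direction and comparison with the smallest adjusted p, with 10 marker lists and the 5 genes most like Hmox1.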

Additional observations from a re-analysis of the deposited data

How the results depend on the processing

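The numbers of members called kept within 1.5 times of those given under most alternatives. With DESeq2's Wald test 1 member was called in Fgg γ390–396A microglia at 7 d over sham (Ftl1) and 1 between genotypes at 1 d (Hmox1), where edgeR called 0. The replicate block gave the same 2 counts of 1, and filterByExpr gave 1 at 7 d in Fgg γ390–396A mice. Beyond these, the block changed 1 call, that of Slc11a2 in Fgg γ390–396A infiltrating cells. In the 10 comparisons where the numbers did not pair the libraries, same-numbered libraries correlated with r from -0.066 to 0.166. Over all groups, those of the paired comparison included, 11 of 21 libraries correlated best with their own number. With total counts 1 member was called in WT mice at 7 d over sham in place of 3, and 1 in Fgg γ390–396A mice between 1 d and 7 d in place of 2, as when only the compared groups were fitted. The light and heavy ferritin sums over sham at 1 d moved to 1.68 and 1.69 on the log2 scale with total counts. Leaving out 1 library at a time gave 1 to 3 members in WT mice at 7 d, 2 to 5 between 1 d and 7 d in WT mice, 0 to 3 in Fgg γ390–396A mice, and 0 to 1 between genotypes at 1 d. Without WT infiltrating library 2 the genotype difference of Hmox1 in those cells turned to 0.11, in a range of -0.25 to 0.11. Signs changed in at least 1 alternative for 34 of 130 member values, of which 0 had been called in either setting. The causes were not tested.

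Over all genes, DESeq2 called 820 genes in WT mice at 7 d over sham (481 in edgeR), 347 in Fgg γ390–396A mice (158), 104, 80 and 841 between genotypes at 1 d, at 7 d and in infiltrating cells (13, 9 and 108), and 33 and 259 in the tests of differences between effects (0 and 11). DESeq2 size factors gave a share of higher genes among those called of 71.7% in Fgg γ390–396A mice at 1 d over sham, in place of 82.7%. filterByExpr and the block called 176 and 66 genes in infiltrating cells between genotypes. Fitting only the compared groups called 85 in Fgg γ390–396A mice at 7 d, 8, 19 and 7 between genotypes, 2211 in place of 3968 between cell types in Fgg γ390–396A mice, and 0 in place of 11. Total counts gave 826, 85, 34 and 7 where edgeR with TMM gave 481, 158, 108 and 11. The lowest member value was 1.76 CPM, above the highest 3-count floor of 0.158 CPM.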
